A study of Homo sapiens with 9 samples.

Results

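The abundant long non-coding RNAs (lncRNAs) of MV4-11 cells were examined, an established human acute myeloid leukaemia line that carries an MLL fusion gene. An RNA was included where the deposited gene table classed its row as lncRNA and listed at least 10 FPKM (fragments scaled to transcript length and to library size) in at least 3 of the 9 libraries. Rows named SNHG with a number, GAS5 and ZFAS1, which are small nucleolar RNA (snoRNA) host genes, were left out. The rule gave 81 rows of the 16887 lncRNA rows, in a table of 60612 genes. All 81 also passed the filter of 1 FPKM in at least 3 libraries that was used for testing, as did 943 lncRNA rows and 12586 genes in all. These RNAs were thus chosen by their measured FPKM levels in the same libraries, so the levels themselves are given as a description.

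Each of 3 groups held 3 RNA-seq libraries of total RNA collected at 72 h. The NCO libraries are labelled as decitabine-treated cells with CD36 knockdown, the NC1 libraries as decitabine-treated wild-type cells, and the KO1 libraries as vehicle-treated wild-type cells. Decitabine is a cytidine analogue that is built into DNA and depletes DNA methyltransferases, and CD36 is a fatty acid receptor of the cell surface. The decitabine dose and the knockdown method are not given in the sources used here. CD36 itself stood at 2.49 ± 0.34 FPKM in the NCO libraries, 2.18 ± 0.37 FPKM in the NC1 libraries and 0.126 ± 0.023 FPKM in the KO1 libraries (SD, n = 3 each). The libraries labelled as knockdown were therefore not the ones with low CD36, and the groups are called NCO, NC1 and KO1 throughout, after their titles. Nothing in the labels says that the replicates came from separate cultures, so the p-values measure only the spread between these libraries, which may be technical. In bulk RNA, fewer cells that express a gene and less of its RNA per cell cannot be told apart.

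Long non-coding RNAs are transcripts that are not translated into a known protein. Some act in the nucleus, as MALAT1 does in nuclear speckles, where splicing factors gather, and others act in the cytoplasm on mRNA stability or on microRNAs. Many lie antisense to, or share a promoter region with, a protein-coding gene, and for some of these it is the act of transcription that influences the neighbour. In myeloid cells, the locus of MIR4435-2HG (called Morrbid in the mouse) is known for its role in the lifespan of short-lived myeloid cells in mice.

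The myeloid identity in the labels was checked on 10 markers, of which 9 passed the filter. Their summed level was 325 to 356 FPKM in the NCO, 339 to 351 FPKM in the NC1 and 311 to 322 FPKM in the KO1 libraries, with 4 higher and 1 lower for NC1 minus KO1 and 5 higher and 1 lower for NCO minus KO1. The myeloid transcription factor SPI1 averaged 145 ± 11.3, 162 ± 10.1 and 163 ± 3.80 FPKM in the NCO, NC1 and KO1 libraries (SD, n = 3 each). Of 12 markers of other cell types, 11 did not pass the filter, among them the T cell genes CD3D and CD3E and the endothelial gene CDH5, which were listed at 0 in all 9 libraries. The summed level of the 12 was 26.3 to 29.4 FPKM in the NCO, 25.3 to 27.9 FPKM in the NC1 and 22.2 to 22.8 FPKM in the KO1 libraries, and without PECAM1, a surface protein of endothelial and myeloid cells, it was 0.839 to 1.11, 1.11 to 1.32 and 1.32 to 1.82 FPKM. The sum of all FPKM ranged from 493061 to 530097 per library. Mitochondrially encoded genes took 17.4 to 18.5% of it in the NCO libraries, 14.5 to 17.6% in the NC1 libraries and 14.5 to 15.3% in the KO1 libraries. The NCO and KO1 libraries did not overlap in this share, while NC1 overlapped both, with NC1-3 at 14.5% and NC1-1 and NC1-2 at 17.6 and 17.3%. Its part in the results was not tested beyond a refit without those genes.

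Decitabine acts on DNA methylation, which sits on cytosines followed by guanine (CpG). To show what the start regions of some of the RNAs with a change look like, the windows from 250 bases before to 50 bases after the RefSeq start (GRCh38.p14) are given for MALAT1 (chr11:65497488-65497787, + strand), DANCR (chr4:52712144-52712443, + strand), LINC02169 (chr16:54270830-54271129, - strand) and THAP9-AS1 (chr4:82900867-82901166, - strand), 5′ to 3′ with every CpG in capitals. MALAT1 and THAP9-AS1 were higher in NC1 than in KO1 libraries, and DANCR and LINC02169 lower.
MALAT1: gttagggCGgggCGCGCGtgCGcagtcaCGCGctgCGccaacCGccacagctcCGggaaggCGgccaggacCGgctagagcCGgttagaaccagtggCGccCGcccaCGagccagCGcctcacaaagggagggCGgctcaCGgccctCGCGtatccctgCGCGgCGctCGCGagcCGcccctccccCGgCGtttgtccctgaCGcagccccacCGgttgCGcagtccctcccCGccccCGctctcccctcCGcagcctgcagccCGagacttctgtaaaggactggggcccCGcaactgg
THAP9-AS1: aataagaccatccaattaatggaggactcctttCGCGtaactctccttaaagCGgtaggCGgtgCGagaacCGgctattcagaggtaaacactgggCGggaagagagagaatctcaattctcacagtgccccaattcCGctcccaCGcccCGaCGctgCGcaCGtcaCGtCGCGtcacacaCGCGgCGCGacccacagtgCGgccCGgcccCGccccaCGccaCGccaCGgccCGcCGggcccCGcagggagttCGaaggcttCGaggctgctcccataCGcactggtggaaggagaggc
DANCR: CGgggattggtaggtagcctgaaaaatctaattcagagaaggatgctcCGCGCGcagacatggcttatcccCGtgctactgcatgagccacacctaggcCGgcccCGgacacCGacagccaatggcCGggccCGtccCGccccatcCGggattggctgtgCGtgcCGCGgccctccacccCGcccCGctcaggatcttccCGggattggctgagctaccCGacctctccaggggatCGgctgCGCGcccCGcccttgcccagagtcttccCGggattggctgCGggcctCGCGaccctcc
LINC02169: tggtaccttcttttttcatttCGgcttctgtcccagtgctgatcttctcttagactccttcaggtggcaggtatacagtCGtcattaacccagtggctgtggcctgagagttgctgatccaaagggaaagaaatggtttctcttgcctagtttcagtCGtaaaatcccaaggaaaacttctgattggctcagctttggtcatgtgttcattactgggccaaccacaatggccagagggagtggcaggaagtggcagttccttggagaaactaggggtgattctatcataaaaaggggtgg

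These windows held 37 CpG for MALAT1, 32 for THAP9-AS1, 27 for DANCR and 3 for LINC02169. The median over 27305 RefSeq promoter windows of the same length was 14.0. Among other RNAs that fell by more than LINC02169, the windows of LINC02870, TSPOAP1-AS1 and SATB1-AS1 held 1, 3 and 47 CpG. Their RefSeq starts lie 862, 978 and 213 bases from the starts in the deposited table. The RNA with the largest rise and the most abundant RNA have no entry in that promoter table, and the first 300 bases of a GENCODE v29 transcript (GRCh38) are shown in their place, again with CpG in capitals. For AC012368.1 these bases lie in 3 exons within chr2:64143239-64207016 (+ strand) and hold 1 CpG, and for AL713998.1 they lie in the first exon at chr6:67889040-67889339 (- strand) and hold 10.
AC012368.1: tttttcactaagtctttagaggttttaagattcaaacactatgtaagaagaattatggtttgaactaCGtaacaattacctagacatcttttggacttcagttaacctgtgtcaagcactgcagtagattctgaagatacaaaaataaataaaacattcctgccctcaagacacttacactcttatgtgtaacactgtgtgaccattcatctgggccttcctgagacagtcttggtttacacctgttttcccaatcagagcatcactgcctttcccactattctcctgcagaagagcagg
AL713998.1: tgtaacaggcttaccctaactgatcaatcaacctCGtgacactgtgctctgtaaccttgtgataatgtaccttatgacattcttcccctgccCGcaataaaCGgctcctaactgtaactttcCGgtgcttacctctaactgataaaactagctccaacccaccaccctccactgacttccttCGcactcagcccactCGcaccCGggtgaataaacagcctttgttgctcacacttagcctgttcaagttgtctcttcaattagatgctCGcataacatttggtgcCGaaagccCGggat

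A RefSeq promoter was matched for 32 of the 81 RNAs, with a median of 22.5 CpG. The RefSeq start lay within 100 bases of the deposited start for 16 of the 32, and as far as 28215 bases away for MIR4435-2HG. Some windows may therefore not hold the start of the measured row. Among the 32, the 4 called higher in NC1 than in KO1 libraries had a median of 31 CpG, the 15 called lower had 16, and the 13 not called had 16. No DNA methylation was measured in the files used here, and these counts describe letters only. Of the motifs searched on both strands, the interferon-stimulated response element (ISRE, searched as GAAA, any pair of bases and GAAA) was found in 1 of the 32 windows (3.12%), that of PSMB8-AS1, against 3.65% of all promoters. The window of PSMB8-AS1 (chr6:32843836-32844135, + strand) is given with the match in capitals.
PSMB8-AS1: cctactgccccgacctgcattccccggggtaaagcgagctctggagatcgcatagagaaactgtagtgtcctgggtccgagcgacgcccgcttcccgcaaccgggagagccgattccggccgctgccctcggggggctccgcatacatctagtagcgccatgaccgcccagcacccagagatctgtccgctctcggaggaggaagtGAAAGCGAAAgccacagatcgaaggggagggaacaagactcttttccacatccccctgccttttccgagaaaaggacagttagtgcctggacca

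The TATA box letters (TATAAA) occurred in 0 of the 32 windows, against 3264 of all 27305 promoters. The E-box (CACGTG) was found in 3 windows (9.38%, against 7.43%), the AP-1 letters (TGANTCA) in 4 (12.5%, against 7.76%) and the heat shock element (GAANNTTC) in 1 (3.12%, against 6.87%).

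Positions are those of the deposited table on GRCh38. The mean over the 9 libraries had a median of 13.04 FPKM and ran from 7.90 to 184 FPKM, with 18 RNAs above 20, 47 between 10 and 20, and 16 below 10 FPKM. The 81 RNAs together made up 0.270 to 0.284% of all FPKM in the NCO libraries, 0.280 to 0.299% in the NC1 libraries and 0.321 to 0.340% in the KO1 libraries, so that the KO1 libraries lay above the rest without overlap. All lncRNA rows together took 1.252 to 1.288%, 1.24 to 1.38% and 1.51 to 1.57% in the same order. Since the rule asks for 3 libraries only, 37 of the RNAs reached 10 FPKM in all 9 libraries and 44 did not. All 3 libraries reached 10 FPKM for 49 RNAs in NCO, 48 in NC1 and 67 in KO1, and 11 of the 81 entered the list through the KO1 libraries alone (LINC02870, DANCR, SATB1-AS1, AL451069.3, AC092484.1, LINC00847, AC023906.5, BAIAP2-DT, AC008014.1, CRNDE and TSPOAP1-AS1). A further 6 had no KO1 library at 10 FPKM (AC022092.1, AC012368.1, MUC20-OT1, AC027644.3, THAP9-AS1 and AC133681.1). By this choice the 11 had to be higher in every KO1 library than in any other. The 6 had at least 3 NC1 or NCO libraries above every KO1 library. That leans away from KO1 without forcing the groups apart, and AC027644.3 was called in neither comparison with KO1. The changes of these RNAs are therefore a description. Counts over the 81 are read only beside those over all genes and are also given for the 37.

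**Figure D1:**
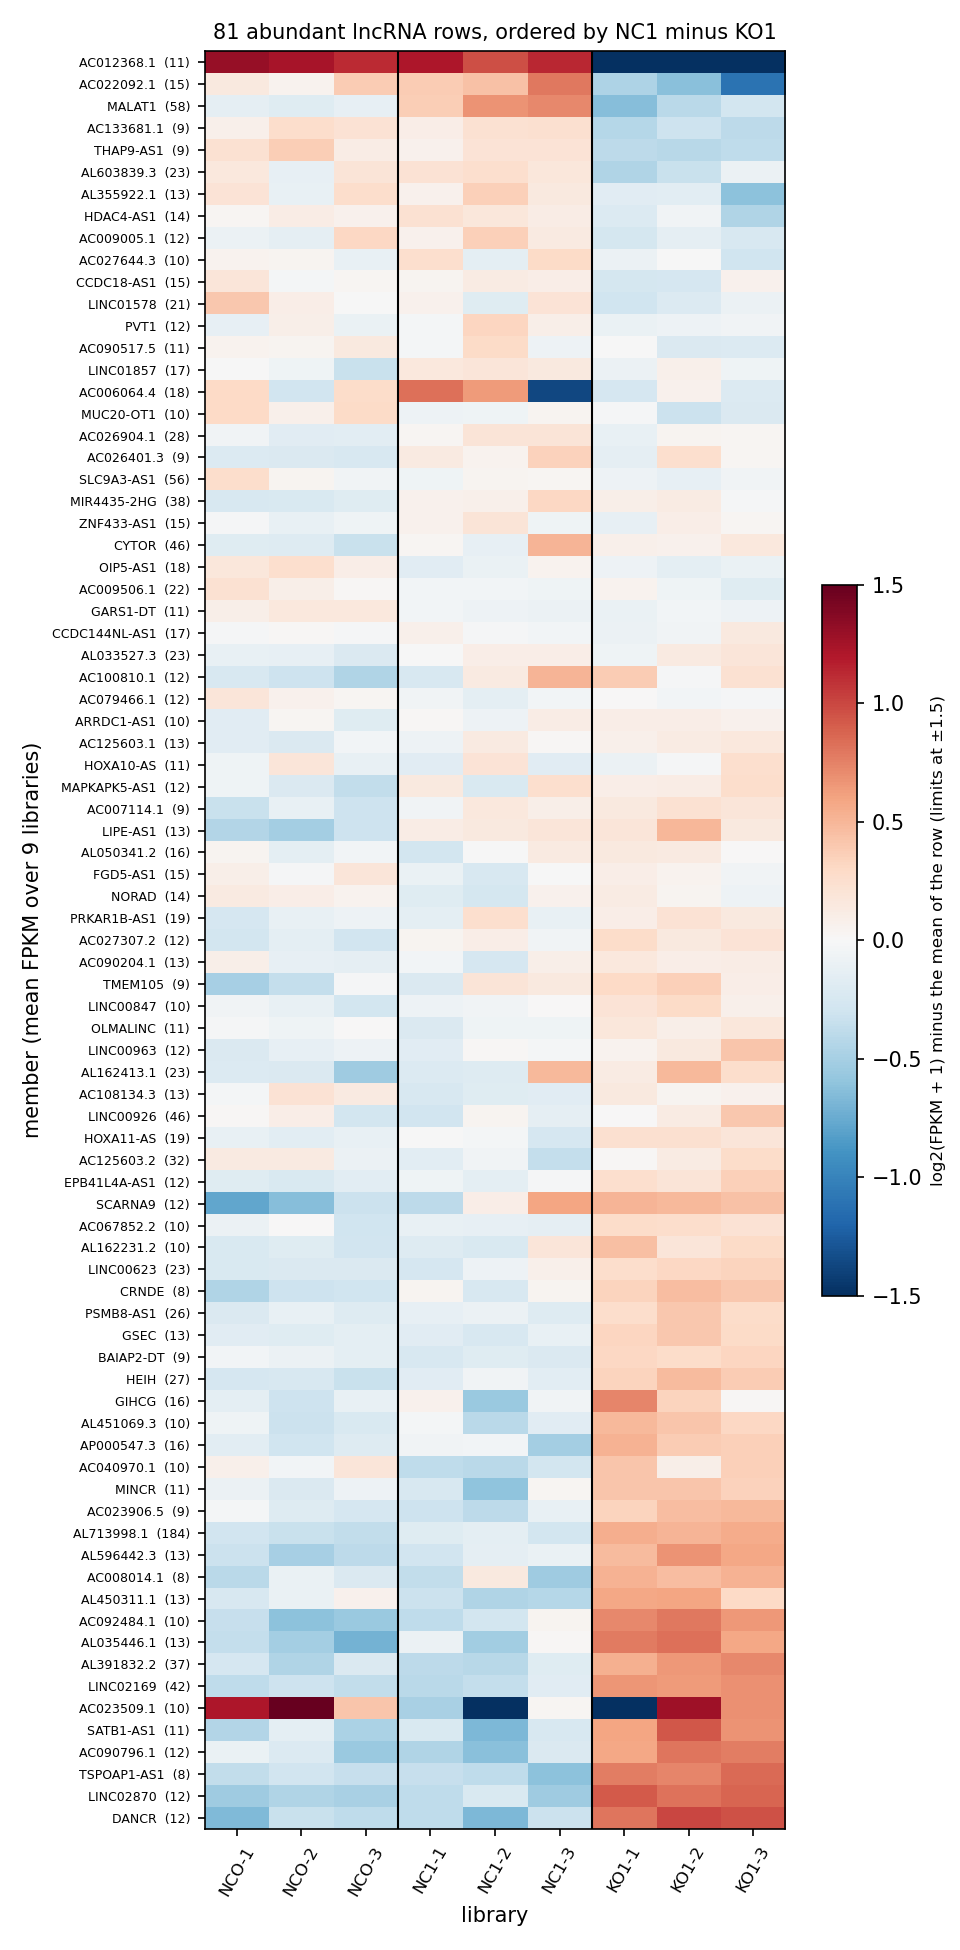
Each of the 81 abundant lncRNAs (rows, ordered by NC1 minus KO1, with the mean FPKM over the 9 libraries in brackets) in the 9 libraries (columns, NCO, NC1, KO1), as log2(FPKM + 1) minus the mean of the row, with red above and blue below that mean. More rows are red in the 3 KO1 libraries than in the others, while AC012368.1 in the top row is red in NCO and NC1 and blue in KO1.

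The most abundant RNA was AL713998.1 (chr6:67878316-67889339), a clone-named gene with no assigned role. It had 145, 140.1 and 137 FPKM in the NCO libraries, 156, 160.1 and 146 FPKM in the NC1 libraries and 259, 253 and 261 FPKM in the KO1 libraries. Every KO1 library lay above every NC1 and NCO library (log2 fold change -0.74, SE 0.045, adjusted p = 2.67e-07 for NC1 minus KO1). MALAT1 came next with a mean over the 9 libraries of 57.7 FPKM, then SLC9A3-AS1, the antisense transcript of a sodium-proton exchanger gene, with 56.0 FPKM, and CYTOR, a cytoplasmic RNA also known as LINC00152, with 46.3 FPKM. LINC00926, LINC02169, MIR4435-2HG, AL391832.2, AC125603.2 and AC026904.1 completed the 10 most abundant. SLC9A3-AS1 was called in no comparison, and its mean was 59.5 ± 6.80 FPKM in NCO, 56.0 ± 2.14 FPKM in NC1 and 52.6 ± 1.32 FPKM in KO1 libraries (SD, n = 3 each). LINC00926 was not called either, with 44.4 ± 6.04, 42.0 ± 4.98 and 52.3 ± 7.83 FPKM. The order of these levels was not the same in every group, since MALAT1 averaged 49.3 ± 1.11 FPKM in NCO, 83.4 ± 10.6 FPKM in NC1 and 40.3 ± 5.26 FPKM in KO1 libraries and so stood above SLC9A3-AS1 in NC1 only.

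In the comparison of NC1 with KO1 libraries, labelled as decitabine against vehicle in wild-type cells, abundant lncRNAs were lower more often than higher. Of the 81, 10 (12.3%) were called higher and 34 (42%) lower at an adjusted p under 0.05 (limma on log2(FPKM + 1), over all 12586 genes). The other 37 were not called. Among the 34 are the 11 RNAs that entered the list through KO1 libraries alone, so their direction was set by the rule. Over all genes tested the order was the other way round, with 28.9% called higher and 18.3% lower. Among lncRNA rows tested, 12.1% were called higher and 24.1% lower. The median log2 difference was -0.18 for the 81, -0.14 for the 37 present at 10 FPKM in all libraries, of which 3 were higher and 11 lower, -0.08 for lncRNA rows and 0.06 for all genes. With mitochondrial genes removed and the sums made equal, the split of the 81 was 16 higher and 30 lower, and with quantile normalization it was 8 and 37. Fold changes on the log2(FPKM + 1) scale understate the change of RNAs at low levels, and an exact permutation test of a single RNA with 3 libraries against 3 cannot give a two-sided p below 0.1, so calls rest on the fit across all genes.

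**Figure D2:**
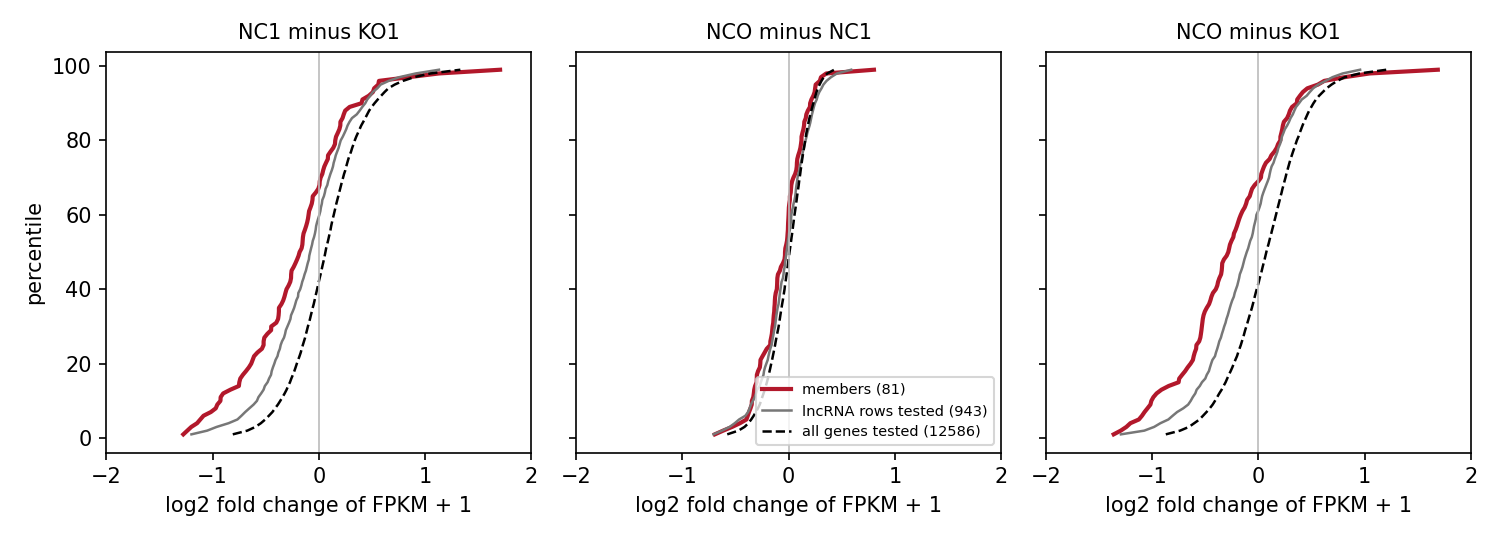
Percentile curves of the log2 fold change for the 81 abundant lncRNAs, for all lncRNA rows tested and for all genes tested, in the 3 comparisons. The curve of the 81 lies to the left of that of all genes over much of its length for NC1 minus KO1 (medians -0.18 and 0.06) and NCO minus KO1 (medians -0.28 and 0.08), and close to it for NCO minus NC1 (medians -0.03 and 0.01).

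The largest rise was that of AC012368.1 (chr2:64143239-64252859, + strand), a clone-named lncRNA and one of the 6 that entered with no KO1 library at 10 FPKM. It was listed at 17.6, 16.6 and 15.3 FPKM in the NCO libraries, 16.3, 13.6 and 15.4 FPKM in the NC1 libraries and 0.413, 0.553 and 0.528 FPKM in the KO1 libraries. The KO1 libraries were all below 1 FPKM and the other 6 all above 13 FPKM, so the groups lay far apart (log2 fold change 3.42, SE 0.082, adjusted p = 1.14e-10), and the ratio of the mean FPKM was 30.3. The start of AC012368.1 overlaps 1182 bases of the start of PELI1 (chr2:64092652-64144420, - strand), which encodes a ubiquitin ligase of innate immune receptor signalling. PELI1 had 7.91, 7.99 and 7.38 FPKM in the NCO libraries, 6.10, 6.43 and 6.404 FPKM in the NC1 libraries and 1.46, 1.34 and 1.03 FPKM in the KO1 libraries, and it too was higher in NC1 than in KO1 libraries without overlap (log2 fold change 1.69, SE 0.084, adjusted p = 4.35e-08). The promoter window of PELI1 held 23 CpG. The counting is not stated to keep strands apart, so reads from the overlap of the pair cannot be assigned to either gene, although the lncRNA spans 109621 bases in all.

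MALAT1 (chr11:65497688-65506516, + strand), which resides in nuclear speckles, was the only abundant RNA of the nuclear and chromatin list. It had 49.9, 48.0 and 50.01 FPKM in the NCO libraries, 71.2, 88.3 and 90.7 FPKM in the NC1 libraries and 34.7, 41.1 and 45.1 FPKM in the KO1 libraries. The NC1 libraries were the highest, with each above all others, and the NCO libraries lay between NC1 and KO1 (log2 fold change 1.03, SE 0.10, adjusted p = 1.83e-05). That list has 14 genes in the deposited data, of which 5 passed the filter. Of these 3 rose and 0 fell: MALAT1, NEAT1 (log2 fold change 0.88, SE 0.23, adjusted p = 0.0107), the scaffold of paraspeckles, and LINC-PINT (log2 fold change 0.63, SE 0.14, adjusted p = 0.00346), a p53-induced RNA. NEAT1 did not reach the abundance rule, at 10.9, 5.68 and 5.42 FPKM in the NCO libraries, 5.56, 5.82 and 8.21 FPKM in the NC1 libraries and 2.80, 3.46 and 2.90 FPKM in the KO1 libraries. Of 7 p53-linked lncRNAs tested, 2 (NEAT1 and LINC-PINT) rose and 0 fell, and with quantile normalization 1 was lower as well. TUG1, classed as protein-coding in the table although known as a lncRNA, was not called (log2 difference 0.14, adjusted p = 0.165).

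The RNA levels of genes for proteins of nuclear speckles, the bodies in which MALAT1 sits, were set beside it. Of 21 tested, 13 were higher and 1 lower in NC1 than in KO1 libraries, against 28.9% and 18.3% of all genes tested. The median log2 difference was 0.29, against 0.06 for all genes. Among those higher were the genes of the splicing coactivator SRRM1 (log2 fold change 0.51, SE 0.063, adjusted p = 5.94e-05), RNPS1 (0.40), SRSF11 (0.49) and the kinase CLK1 (0.60), while U2AF2 was lower (-0.42). Under the other 3 scalings 11 to 15 were higher and 1 lower. Genes for paraspeckle proteins gave 3 rows higher and 6 lower of 19 rows for 18 genes, MATR3 having 2 rows that moved in opposite directions. Of 26 genes of nuclear RNA decay and processing, 8 were higher and 5 lower.

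Among the remaining RNAs called higher, AC022092.1 (chr5:135450613-135458697) had 15.1, 14.2 and 18.0 FPKM in the NCO libraries, 18.0, 18.8 and 24.3 FPKM in the NC1 libraries and 9.60, 8.42 and 5.74 FPKM in the KO1 libraries. The NC1 and NCO libraries all exceeded those of KO1 (log2 fold change 1.27, SE 0.17, adjusted p = 0.000181). It overlaps TIFAB on the opposite strand by 1739 bases, and TIFAB, an inhibitor of TRAF6 signalling, was lower in NC1 libraries (log2 fold change -0.32, SE 0.060, adjusted p = 0.00132). AC133681.1 (0.57), THAP9-AS1 (0.56), AL603839.3 (0.51), AL355922.1 (0.51), HDAC4-AS1 (0.41) and AC009005.1 (0.40) were called with no overlap between groups, with adjusted p from 7.26e-05 to 0.0136. Of these RNAs, AC022092.1, AC133681.1 and THAP9-AS1 were chosen with no KO1 library at 10 FPKM, so their rises are a description. CCDC18-AS1 was called with overlapping libraries (log2 fold change 0.24, SE 0.090, adjusted p = 0.0479), and its call ended without any 1 of 7 libraries. THAP9-AS1 had 10.9, 12.2 and 10.03 FPKM in the NCO libraries, 9.70, 10.8 and 10.8 FPKM in the NC1 libraries and 6.80, 6.63 and 6.81 FPKM in the KO1 libraries, but all of its 7952 bases lie within SEC31A on the same strand, and SEC31A, a coat protein of transport vesicles, was higher too (log2 fold change 0.71, SE 0.053, adjusted p = 1.4e-06). AC009005.1 overlaps the start of BSG, the gene of basigin, which rose (0.50), and AL603839.3 overlaps ZFP69, which also rose (0.31).

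**Figure D3:**
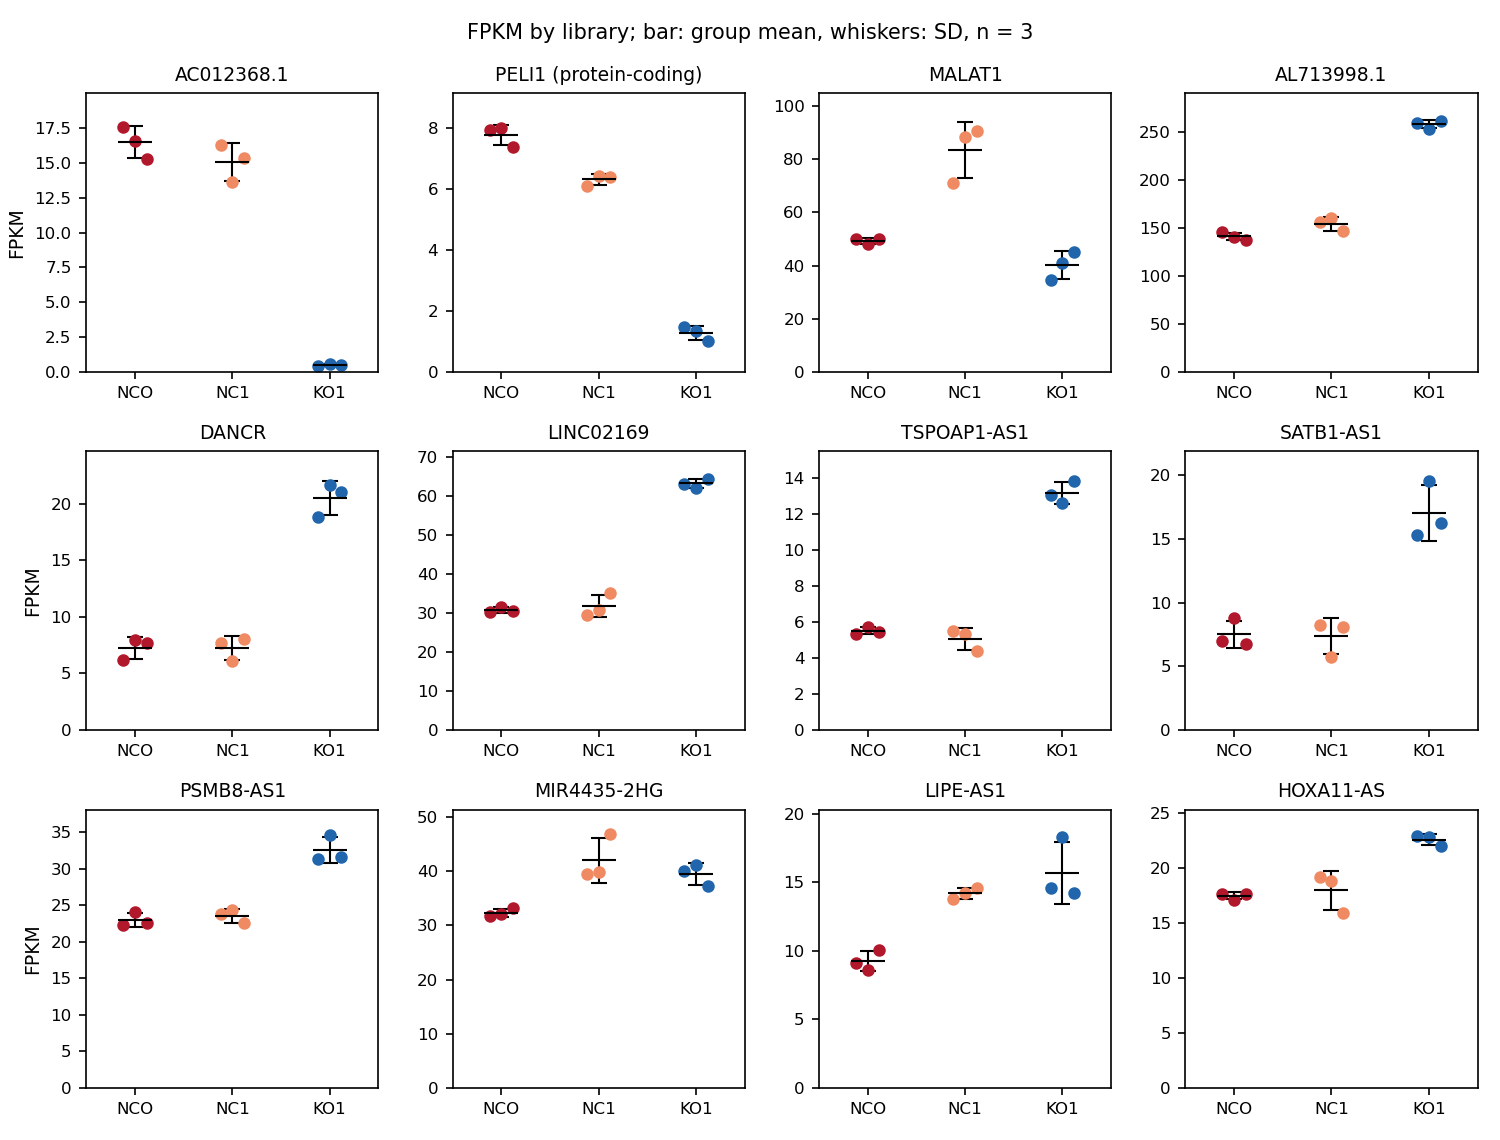
FPKM per library (points), mean (line) and SD (bar) of 11 abundant lncRNAs and of PELI1 in the NCO, NC1 and KO1 groups, each panel from 0. AC012368.1 and PELI1 are low in KO1, MALAT1 is highest in NC1, and DANCR, LINC02169, TSPOAP1-AS1 and SATB1-AS1 are highest in KO1.

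DANCR (chr4:52712325-52723623, + strand), named for holding back differentiation of progenitor cells and also a snoRNA host, had the largest fall among those called, and it is one of the 11 that entered the list through KO1 libraries alone. It had 6.16, 7.98 and 7.69 FPKM in the NCO libraries, 7.69, 6.07 and 8.02 FPKM in the NC1 libraries and 18.8, 21.7 and 21.0 FPKM in the KO1 libraries. The 3 KO1 libraries stood far above the other 6, and its level in NC1 libraries was 2.82-fold lower than in KO1 (log2 fold change -1.39, SE 0.11, adjusted p = 2.13e-06). EPB41L4A-AS1, another snoRNA host, was also lower, with 9.94 ± 0.27, 10.8 ± 0.5 and 14.0 ± 0.88 FPKM in NCO, NC1 and KO1 (SD, n = 3 each; log2 fold change -0.35, SE 0.063, adjusted p = 0.00102). Of 5 snoRNA hosts tested with them, 0 were higher and 3 lower, the other one being SNHG32 (-0.64), which the rule excludes by name.

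Of 12 genes tested from a list of cytoplasmic and growth-linked lncRNAs, 0 were higher and 5 lower in NC1 than in KO1 libraries. The 5 were DANCR, CRNDE, LINC00847, LINC00467 and SMIM26, the last of which the deposited data class as protein-coding. With mitochondrial genes removed, however, the split was 3 higher and 2 lower. CRNDE, a lncRNA raised in many tumours, had 5.44, 6.13 and 6.19 FPKM in the NCO libraries, 8.08, 6.48 and 8.10 FPKM in the NC1 libraries and 10.1, 11.2 and 10.6 FPKM in the KO1 libraries, highest in KO1 (log2 fold change -0.45, SE 0.087, adjusted p = 0.00152). Like DANCR, CRNDE and LINC00847 entered the list through KO1 libraries alone, so their falls are a description. NORAD, a cytoplasmic RNA that binds Pumilio proteins, had 15.6, 15.2 and 14.8 FPKM in the NCO libraries, 12.4, 11.7 and 14.9 FPKM in the NC1 libraries and 15.5, 14.6 and 13.4 FPKM in the KO1 libraries, and its groups overlapped (log2 difference -0.15, adjusted p = 0.156). OIP5-AS1 (cyrano in zebrafish) was not called (0.04, adjusted p = 0.685), nor were CYTOR (0.04, adjusted p = 0.811) and MIR4435-2HG (0.08, adjusted p = 0.332). PVT1, which neighbours MYC, averaged 11.7 ± 1.05, 13.4 ± 1.83 and 11.5 ± 0.18 FPKM in NCO, NC1 and KO1 libraries and was not called (adjusted p = 0.085), whereas MYC was lower in NC1 libraries (log2 fold change -0.58, SE 0.056, adjusted p = 9.39e-06). MINCR, reported as induced by MYC, was lower (log2 fold change -0.66, SE 0.13, adjusted p = 0.00141). HEIH, a lncRNA reported to bind EZH2, was lower (log2 fold change -0.52, SE 0.057, adjusted p = 2.66e-05), as was LINC00847 (-0.23), whose row overlaps that of HEIH on the opposite strand by 1280 bases. GSEC, a lncRNA that forms a G-quadruplex, fell as well (log2 fold change -0.51, SE 0.058, adjusted p = 3.72e-05), and OLMALINC, which lies near the desaturase gene SCD, did so by less (-0.26).

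LINC02169 (chr16:54245544-54270879, - strand) had 30.2, 31.5 and 30.5 FPKM in the NCO libraries, 29.6, 30.6 and 35.0 FPKM in the NC1 libraries and 63.2, 62.1 and 64.3 FPKM in the KO1 libraries. All KO1 libraries lay above 60 FPKM and all others at or below 35.0 FPKM (log2 fold change -0.98, SE 0.060, adjusted p = 2.95e-07). The nearest protein-coding start is that of IRX3, a homeobox gene, 15908 bases away, and IRX3 had 14.7, 14.1 and 13.1 FPKM in the NCO libraries, 12.9, 13.1 and 15.5 FPKM in the NC1 libraries and 32.6, 30.1 and 31.7 FPKM in the KO1 libraries, which was again highest in KO1 (log2 fold change -1.14, SE 0.073, adjusted p = 4.27e-07). CRNDE lies next to IRX5, a homeobox gene of the same cluster, and IRX5 was lower in NC1 libraries (log2 fold change -0.42, SE 0.085, adjusted p = 0.00214). IRX3 was added after its values were seen, as were MYC above and CHD2 below.

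SATB1-AS1 and HOXA11-AS, antisense to a chromatin gene and a homeobox gene, were both lower in NC1 than in KO1 libraries. SATB1-AS1 lies opposite SATB1, which encodes an organiser of chromatin, and overlaps it by 565 bases. It had 6.96, 8.76 and 6.78 FPKM in the NCO libraries, 8.23, 5.77 and 8.11 FPKM in the NC1 libraries and 15.3, 19.6 and 16.3 FPKM in the KO1 libraries, with all KO1 libraries above the rest (log2 fold change -1.12, SE 0.14, adjusted p = 7.81e-05), and SATB1 was lower in NC1 by less (log2 fold change -0.44, SE 0.090, adjusted p = 0.00216). SATB1-AS1 entered the list through KO1 libraries alone, so its separation is a description. HOXA11-AS had 17.7, 17.1 and 17.6 FPKM in the NCO libraries, 19.2, 18.8 and 15.96 FPKM in the NC1 libraries and 22.9, 22.8 and 22.0 FPKM in the KO1 libraries (log2 fold change -0.32, SE 0.067, adjusted p = 0.00256), and HOXA11, on the opposite strand, was lower too (log2 fold change -0.45, SE 0.072, adjusted p = 0.000452). Of 4 HOX cluster lncRNAs tested, 0 were higher and 3 lower, the others being HOTAIRM1 (-0.45), a myeloid transcript of the HOXA locus, and HOTTIP (-0.44). HOXA10-AS, which lies 12591 bases from HOXA11-AS, was not called (log2 difference -0.10, adjusted p = 0.549).

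PSMB8-AS1, whose start window holds the ISRE letters, lies at the immunoproteasome genes PSMB8 and PSMB9 and overlaps both. It had 22.3, 24.1 and 22.6 FPKM in the NCO libraries, 23.8, 24.4 and 22.6 FPKM in the NC1 libraries and 31.4, 34.7 and 31.7 FPKM in the KO1 libraries. The lncRNA was lower in NC1 libraries without overlap (log2 fold change -0.45, SE 0.057, adjusted p = 8.01e-05), PSMB8 was lower by less (log2 fold change -0.17, SE 0.039, adjusted p = 0.00495) and PSMB9, which covers 2365 of its 2423 bases on the same strand, was higher (log2 fold change 0.72, SE 0.058, adjusted p = 2.4e-06). TAP1 at the same locus was not called (adjusted p = 0.825). Of 12 interferon-induced protein-coding genes 11 were higher and 1 (PSMB8) lower, with IFI27 up by 5.63 and ISG15 by 3.34 on the log2 scale. Among 9 interferon-linked and inflammatory lncRNAs tested, 3 (IRF1-AS1, NRIR and LUCAT1) were higher and PSMB8-AS1 lower, while 5 were not called. With quantile normalization 3 were higher and 3 lower and the median turned from 0.08 to -0.03.

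TSPOAP1-AS1 (chr17:58324472-58415766, + strand) spans, on the opposite strand, the gene of miR-142, a microRNA of blood cells. It had 5.33, 5.71 and 5.44 FPKM in the NCO libraries, 5.47, 5.30 and 4.36 FPKM in the NC1 libraries and 13.02, 12.6 and 13.8 FPKM in the KO1 libraries, and the KO1 libraries lay far above the rest (log2 fold change -1.23, SE 0.080, adjusted p = 4.27e-07). TSPOAP1-AS1 is one of the 11 that entered the list through KO1 libraries alone, so this separation is a description. SUPT4H1, a transcription elongation factor gene that it overlaps by 7919 bases on the opposite strand, was lower too (-0.36), and 52.4% of the 50-base windows of the TSPOAP1-AS1 transcripts occur in other genes. Within 7 of the 81 RNAs lie 12 microRNA rows of the deposited data, 5 of them (MIR1204 to MIR1208) within PVT1. The RefSeq mature sequences (GRCh38.p14) of those named here are given with the seed, bases 2 to 8, in capitals.
hsa-miR-142-5p: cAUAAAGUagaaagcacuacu
hsa-miR-142-3p: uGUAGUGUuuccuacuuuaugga
hsa-miR-196b-5p: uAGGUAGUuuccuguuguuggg
hsa-miR-4449: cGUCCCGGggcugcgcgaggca
hsa-miR-4435: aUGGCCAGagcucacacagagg

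The miR-196b hairpin lies opposite HOXA10-AS, that of miR-4449 within DANCR on the same strand, and miR-4435 within both CYTOR and MIR4435-2HG, so this pair carries the same mature sequence and seed. No other seed was shared among those printed. Mature microRNAs were not measured here. Of 9 microRNA host lncRNAs tested, 0 were higher and 2 lower in NC1 than in KO1 libraries (MIR223HG and MIR646HG, both -0.41), and with quantile normalization 4 were lower.

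The other named RNAs that fell were LINC02870 (log2 fold change -1.25, SE 0.077, adjusted p = 2.93e-07), AC090796.1 (-1.15), AL391832.2 (-0.96), AL035446.1 (-0.93), AC092484.1 (-0.92) and AL450311.1 (-0.89), all without overlap between the groups. LINC02870 had 7.42, 7.90 and 7.70 FPKM in the NCO libraries, 8.32, 9.39 and 7.40 FPKM in the NC1 libraries and 22.0, 20.4 and 21.2 FPKM in the KO1 libraries, and its KO1 libraries were all above 20 FPKM. AL451069.3, which lies 2842 bases from LINC02870 on the opposite strand, was also lower (log2 fold change -0.60, SE 0.10, adjusted p = 0.00054). LINC02870, AL451069.3 and AC092484.1 entered the list through KO1 libraries alone, so their falls are a description. AL391832.2 had 29.6, 25.7 and 30.4 FPKM in the NCO libraries, 26.7, 26.4 and 31.2 FPKM in the NC1 libraries and 51.8, 56.2 and 59.0 FPKM in the KO1 libraries, highest in KO1. Of the 81, 34 (42%) were lower and 11 (13.6%) higher with no overlap between groups, against 21.9% and 34.5% of all genes tested. These 34 include the 11 RNAs that entered the list through KO1 libraries alone, whose separation was set by the rule. Of the 37 RNAs at 10 FPKM in all libraries, 12 were lower and 4 higher without overlap. At a change of at least 2-fold, 3 were higher (AC012368.1, AC022092.1 and MALAT1) and 5 lower (DANCR, LINC02870, TSPOAP1-AS1, AC090796.1 and SATB1-AS1), against 2.18% and 0.373% of all genes. All but MALAT1 of the 3 had no KO1 library at 10 FPKM, and all but AC090796.1 of the 5 reached it in KO1 libraries alone, so the choice of the RNAs bears on this count. Of the 37 RNAs at 10 FPKM in all libraries, 1 (MALAT1) was higher and 0 lower by 2-fold.

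In the comparison of NCO with NC1 libraries, both labelled as decitabine-treated and the first as CD36 knockdown, 13 abundant lncRNAs were called. These were 16% of the 81, against 14.7% of all genes tested and 7.53% of lncRNA rows. Of the 81, 4 (4.94%) were higher and 9 (11.1%) lower, against 6.12% and 8.62% of all genes tested and 2.65% and 4.88% of lncRNA rows. The 37 RNAs at 10 FPKM in all libraries gave 3 and 4. The median was -0.03 for the 81 and 0.01 for all genes, and it turned to 0.03 for the 81 with mitochondrial genes removed, when 10 were higher and 6 lower. None was called with a 2-fold change (0 higher and 0 lower, against 0.00795% and 0.0795% of all genes). An unadjusted p under 0.05 by limma was found for 32 of the 81 (39.5%), against 31.2% of all genes and 21.8% of lncRNA rows.

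Among the 13 called, MALAT1 changed most, with 49.9, 48.0 and 50.01 FPKM in the NCO libraries, 71.2, 88.3 and 90.7 FPKM in the NC1 libraries and 34.7, 41.1 and 45.1 FPKM in the KO1 libraries and no overlap (log2 fold change -0.74, SE 0.10, adjusted p = 0.00193). LIPE-AS1, antisense to the hormone-sensitive lipase gene, had 9.10, 8.59 and 10.04 FPKM in the NCO libraries, 13.8, 14.2 and 14.6 FPKM in the NC1 libraries and 14.6, 18.3 and 14.2 FPKM in the KO1 libraries, and the NCO libraries were below all others (log2 fold change -0.57, SE 0.091, adjusted p = 0.00326). MIR4435-2HG (chr2:111006015-111523376) had 31.7, 32.0 and 33.2 FPKM in the NCO libraries, 39.4, 39.9 and 46.8 FPKM in the NC1 libraries and 40.1, 41.2 and 37.3 FPKM in the KO1 libraries. Its NCO libraries lay below all NC1 and KO1 libraries (log2 fold change -0.37, SE 0.067, adjusted p = 0.00647). These 3 were the only calls of the 13 to hold under each of the 18 alternative fits, which counted leaving out each library in turn.

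The row of MIR4435-2HG spans BCL2L11, which encodes the pro-apoptotic protein BIM, on the opposite strand. BCL2L11 had 8.47, 9.63 and 8.60 FPKM in the NCO libraries, 7.15, 7.59 and 8.29 FPKM in the NC1 libraries and 11.0, 10.6 and 9.95 FPKM in the KO1 libraries and was not called between NCO and NC1 (0.19, adjusted p = 0.106). CYTOR, which holds 21.6% of the 50-base windows of MIR4435-2HG, had 40.1, 39.7 and 35.9 FPKM in the NCO libraries, 46.7, 42.0 and 65.5 FPKM in the NC1 libraries and 48.2, 47.6 and 51.1 FPKM in the KO1 libraries, with NC1-3 the highest. Its NCO libraries were below the rest, but it was not called (-0.38, adjusted p = 0.0808). Reads from the shared stretches could fall to either gene.

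The other RNAs called lower were AC026401.3 (-0.40), AC007114.1 (-0.32), LINC01857 (-0.30), CRNDE (-0.30), AC026904.1 (-0.27) and AC027307.2 (-0.26), with adjusted p from 0.0213 to 0.041. Those higher were AC040970.1 (0.43), AC108134.3 (0.31), OIP5-AS1 (0.24) and GARS1-DT (0.20), the divergent transcript of the glycyl-tRNA synthetase gene. OIP5-AS1 had 20.6, 21.7 and 19.5 FPKM in the NCO libraries, 16.02, 16.9 and 18.9 FPKM in the NC1 libraries and 17.1, 16.3 and 16.9 FPKM in the KO1 libraries, so the NCO libraries lay just above the others (log2 fold change 0.24, SE 0.067, adjusted p = 0.034). AC108134.3 overlaps IL32, an inflammatory cytokine gene, by 5282 bases on the opposite strand, and IL32 was lower in NCO where the lncRNA was higher (log2 difference -0.67, adjusted p = 0.000522). AC040970.1 lies within DENND3 on the opposite strand. Leaving out NCO-2 or NCO-3 each ended 7 of the 13 calls, and leaving out NC1-1, NC1-2 or NCO-1 ended 6.

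Of the 5 nuclear lncRNAs tested, 1 was higher (TUG1, log2 fold change 0.26, SE 0.078, adjusted p = 0.0493) and MALAT1 lower. Of 21 genes for nuclear speckle proteins 1 was higher (THRAP3) and 0 lower. Genes for paraspeckle proteins gave 5 rows higher and 0 lower of 19, and 5 to 10 higher under the other 3 scalings. Of 26 genes of nuclear RNA decay and processing, 2 were higher and 3 lower. No HOX lncRNA (0 of 4), interferon-linked lncRNA (0 of 9) or snoRNA host (0 of 5) was called in either direction. With 7.53% of lncRNA rows tested called in this comparison, lists this short cannot show whether they differ from that share. Of the 12 interferon-induced protein-coding genes, 0 were higher and 9 lower, against 6.12% and 8.62% of all genes tested.

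The comparison of NCO with KO1 libraries, labelled as CD36 knockdown with decitabine against wild type with vehicle, shares libraries with both comparisons above, so its values are given beside theirs and not as further evidence. Of the 81, 12 (14.8%) were higher and 45 (55.6%) lower, against 32.1% and 20.1% of all genes tested, and 12.4% and 28.1% of lncRNA rows. Among the 45 are the 11 RNAs that entered the list through KO1 libraries alone, so their direction was set by the rule. For the 37 RNAs at 10 FPKM in all libraries the counts were 5 and 15. The median was -0.28 for the 81, -0.14 for the 37 and 0.08 for all genes. A refit without mitochondrial genes gave 19 higher and 35 lower, with medians of -0.15 for the 81 and 0.19 for all genes.

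AC012368.1 (3.55), AC022092.1 (0.93), THAP9-AS1 (0.64), AC133681.1 (0.56), AL355922.1 (0.44), MUC20-OT1 (0.41), LINC01578 (0.36), HDAC4-AS1 (0.31) and OIP5-AS1 (0.28) were higher without overlap. MALAT1 was too (log2 fold change 0.29, SE 0.10, adjusted p = 0.0335), but the call ended without any 1 of KO1-1, KO1-2, NCO-1, NCO-2 and NCO-3. The calls of AL355922.1 (without KO1-3, NCO-1 or NCO-3) and LINC01578 (without KO1-1, KO1-2 or NCO-1) also ended, with adjusted p up to 0.0779 and 0.0895 by limma. LINC01578, known as CHASERR, lies directly before CHD2, a chromatin remodeller gene that its mouse counterpart represses. It had 27.8, 22.2 and 20.6 FPKM in the NCO libraries, 21.7, 18.2 and 24.1 FPKM in the NC1 libraries and 16.6, 17.8 and 19.5 FPKM in the KO1 libraries (log2 fold change 0.36, SE 0.12, adjusted p = 0.0247), and CHD2 had 14.1, 12.1 and 12.6 FPKM in the NCO libraries, 12.1, 11.2 and 11.96 FPKM in the NC1 libraries and 7.89, 6.94 and 7.47 FPKM in the KO1 libraries, lowest in KO1 (log2 fold change 0.73, SE 0.072, adjusted p = 1.28e-05). The largest falls were those of DANCR (-1.38), LINC02870 (-1.35), AL035446.1 (-1.25), AC092484.1 (-1.22), TSPOAP1-AS1 (-1.12), SATB1-AS1 (-1.09), SCARNA9 (-1.06), LINC02169 (-1.02), AC090796.1 (-1.01) and AL596442.3 (-0.98), with adjusted p of at most 0.00322. LINC02169, at 10 FPKM in all 9 libraries, was thus lower in NCO and in NC1 than in the same KO1 libraries, and it was not called between NCO and NC1 (adjusted p = 0.68). For DANCR, LINC02870, AC092484.1, TSPOAP1-AS1 and SATB1-AS1 that order was set by their choice through the KO1 libraries. Likewise, AC012368.1, AC022092.1, THAP9-AS1, AC133681.1 and MUC20-OT1 were chosen with no KO1 library at 10 FPKM, so their rises are a description.

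**Figure D4:**
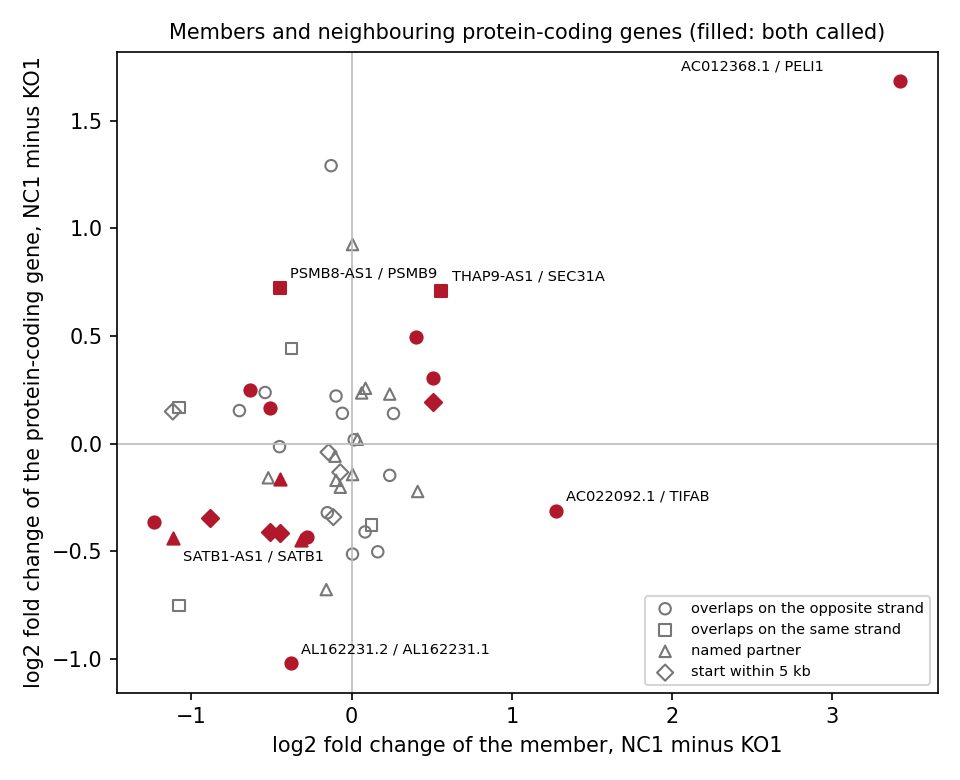
Log2 fold change for NC1 minus KO1 of each abundant lncRNA (x axis) and of a protein-coding gene that it is named after, overlaps or starts within 5 kb of (y axis), for pairs in which both were tested. Filled points mark pairs with both genes called, and AC012368.1 with PELI1 lies alone at the upper right.

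Position was described for all 81. They lie on 19 chromosomes, 62 overlap another row of the table, 44 overlap a protein-coding gene (38 on the opposite strand, 11 on the same) and 19 overlap none. The share that overlap a protein-coding gene was 54.3%, against 57.5% of the other lncRNA rows tested. Clone names were carried by 46.9% of them and by 49.7% of the others. A protein-coding start lay within 1 kb for 21. Among pairs with an overlapping protein-coding gene, 14 had the lncRNA called and the partner tested in NC1 minus KO1, and the partner was called in the same direction in 7, in the opposite direction in 4 and not at all in 3. In 6 further pairs, with the gene the lncRNA is named after, the partner was called in the same direction in 3 and not called in 3. In NCO minus NC1, 5 overlapping pairs outside the named ones could be compared, and the partner was called in the opposite direction in 1 and not called in 4. The partner was not called in either of the 2 named pairs. Without strand information, reads of an overlapping pair cannot be told apart, so a shared direction is not independent for both.

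**Figure D5:**
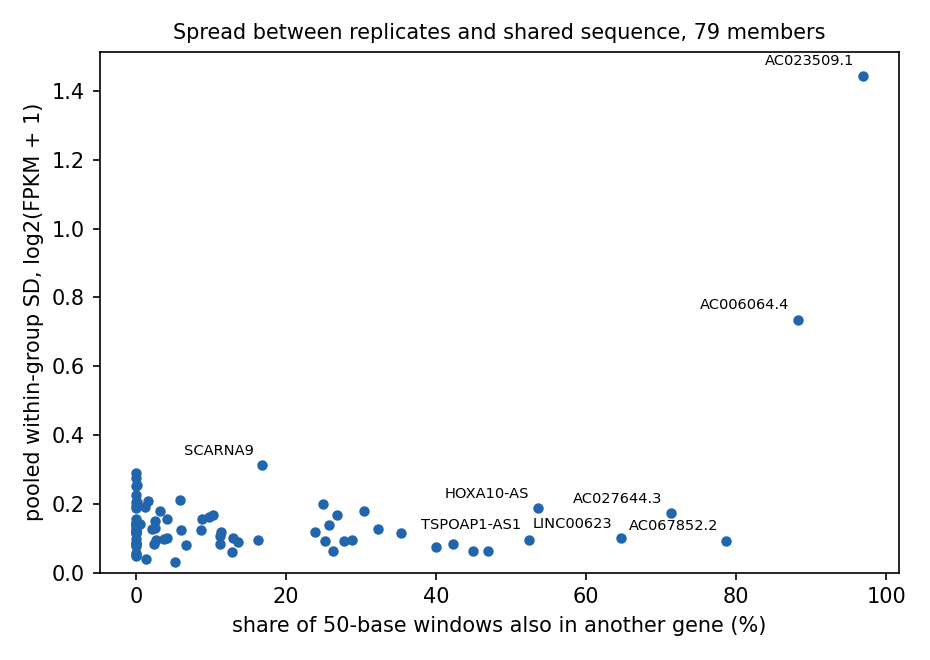
Pooled within-group SD of log2(FPKM + 1) (y axis) against the percentage of 50-base transcript windows that occur in another gene (x axis) for the abundant lncRNAs with a GENCODE v29 transcript. AC023509.1 and AC006064.4, with 96.9% and 88.2% of windows shared, have the largest SD (1.44 and 0.74).

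The pooled within-group SD on the log2(FPKM + 1) scale had a median of 0.12 over the 81, against 0.10 over all genes tested and 0.18 over lncRNA rows. A pair of RNAs stood apart. AC023509.1 had 16.5, 27.3 and 9.11 FPKM in the NCO libraries, 4.403, 0 and 6.70 FPKM in the NC1 libraries and 0.77, 17.2 and 11.1 FPKM in the KO1 libraries, from 0 to 27.3 FPKM over the 9 libraries. Of its 50-base transcript windows 96.9% occur in other genes, most often PCBP2 (69.0%). AC006064.4 lies within GAPDH on the opposite strand and shares 88.2% of its windows with it. It had 20.4, 13.2 and 20.1 FPKM in the NCO libraries, 29.9, 26.0 and 5.72 FPKM in the NC1 libraries and 13.6, 17.1 and 14.1 FPKM in the KO1 libraries, and NC1-3 was far below NC1-1 and NC1-2. It was called in no comparison, but without NC1-3 it was higher in NC1 than in KO1 libraries (log2 difference 0.86, adjusted p = 0.00545 by limma, the lowest of its 18 alternatives, which reached 0.925). SCARNA9, named as a small Cajal body RNA and only 353 bases long, came next with an SD of 0.31. In all, 7 of the 79 RNAs with a transcript share more than 50% of their windows, 31 more than 10% and 26 none, with a median of 4.16%. For those with much shared sequence the level depends on how the counting assigned such reads, which is not given in the sources used here.

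At the edge of the rule, the third-highest library stood at 10.1 FPKM for LINC00847, CRNDE and AC007114.1, the last RNAs included. It stood at 9.85 FPKM for MIR223HG, 9.84 FPKM for AC093673.1 and 9.75 FPKM for AP002360.1, the first left out. MIR223HG, host of the myeloid microRNA miR-223, had 8.70, 8.56 and 9.85 FPKM in the NCO libraries, 7.80, 6.11 and 7.99 FPKM in the NC1 libraries and 9.91, 11.3 and 8.89 FPKM in the KO1 libraries. TUG1 and SMIM26 reached 10 FPKM in all 9 libraries and stayed out because the table classes them as protein-coding.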

How the data were processed

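Gene-level FPKM values of 9 RNA-seq libraries were used as deposited. The unit is not named in the table. It was taken from the values and from the submitters' processing notes, which name CASAVA 1.8, Trimmomatic, FastQC, HISAT2, StringTie, edgeR and GRCh38, so the deposited FPKM values were scaled by the authors per transcript length and library. No counts were used, and the depth per library is unknown.

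From these values log2(FPKM + 1) was fitted with limma 3.58.1 (R 4.3.3; trend and robust moderation) over all 9 libraries for the 12586 genes with at least 1 FPKM in at least 3 libraries, with Benjamini-Hochberg adjustment over all of them and a threshold of 0.05. The code was tested on simulated data. Tables were handled with Python 3.11.15 and pandas 2.3.3. The RNAs and gene lists were chosen with earlier results of these data known.

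Named RNAs are the 10 with the highest mean, those in a role list, the 10 largest called changes in each direction without overlap between groups, the 3 on each side of the abundance threshold, and antisense or divergent RNAs with a called partner. Same-numbered replicates did not deviate together (correlations from -0.101 to 0.0797), so the numbers were not treated as pairs. Alternatives covered the pseudocount, filters, scaling, moderation, the replicate number as a block, the 6 libraries compared alone, each library left out, and RNAs chosen by a mean of at least 10 FPKM.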

Additional observations from a re-analysis of the deposited data

How the results depend on the processing

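Of the counts of genes and of abundant lncRNAs called, 204 alternative values stayed within 1.5 times the reported count and 21 did not. With mitochondrial genes removed, the abundant lncRNAs called higher numbered 16 for NC1 minus KO1, 10 for NCO minus NC1 and 19 for NCO minus KO1. For NCO minus NC1, no filter on low values gave 781 genes and 3 abundant lncRNAs called, 0 higher and 3 lower, since the adjustment then ran over more genes. For the same comparison the fit with the replicate block gave 2 higher, and so did the fit of the 6 libraries alone. The block moved no other count of calls by more than 1.5 times, and the replicate numbers are not known to pair the libraries. With each library left out in turn, NC1 minus KO1 gave 4967 to 5978 genes called and 41 to 46 abundant lncRNAs, 9 to 11 higher and 32 to 36 lower. NCO minus KO1 gave 5626 to 6854 genes and 49 to 59 abundant lncRNAs, 9 to 13 higher and 37 to 46 lower. NCO minus NC1, with 1855 genes called in all, gave 908 to 1708 genes and 6 to 13 abundant lncRNAs, 1 to 5 higher and 4 to 10 lower. Without NC1-1 there was 1 higher, without NC1-2 there were 1076 genes and 2 higher, without NCO-1 there were 1055 genes and 8 abundant lncRNAs with 5 lower, without NCO-2 there were 908 genes and 6 with 1 higher and 5 lower, and without NCO-3 there were 7 with 4 lower. BSG turned to 0.021 (adjusted p = 0.825 by limma) for NCO minus NC1 with quantile normalization. The causes were not tested. Across 18 alternatives, 36 of 44 calls for NC1 minus KO1 (7 higher, 29 lower), 3 of 13 for NCO minus NC1 and 41 of 57 for NCO minus KO1 (7 higher, 34 lower) held in every one, and 0 turned into a call in the opposite direction.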
